A study of Mus musculus with 12 samples.

Results

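Transcripts of glycolysis and of the hypoxia response were followed in MEFs, fibroblasts cultured from mouse embryos. The set held 37 of the 15445 genes tested. It was put together by function: 16 glycolytic enzymes, 3 regulators of glycolytic flux, 3 glucose and lactate transporters, HIF1A with 2 of the prolyl hydroxylases that sense oxygen, and 12 other genes known as targets of HIF1. All 37 genes had a named probe that was well above background on all 12 arrays. The lines compared were one wild type and one GADD34ΔC/ΔC (ΔC below). Either was left untreated or lipofected for 6 h with 2.5 µg/ml of poly(I:C) of high molecular weight, which mimics the double-stranded RNA of viruses. GADD34 is the product of Ppp1r15a and recruits protein phosphatase 1 to dephosphorylate eIF2α, and ΔC names a shortened form of it. Each of the 4 groups had 3 arrays, numbered 1 to 3 by independent experiment. No lipid-only sample is listed, so that the effects of poly(I:C) and of the lipid cannot be told apart. The labels do not give the embryos, clones or passages behind either line, so that genotype and cell line cannot be told apart either, and p-values measure the spread between experiments.

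Glycolysis splits glucose into pyruvate, which lactate dehydrogenase can turn into lactate. HIF1 is a transcription factor whose alpha subunit is hydroxylated by the EGLN enzymes when oxygen is present and is then degraded. When oxygen is low the subunit persists, binds a short core sequence in promoters and enhancers, and raises the transcription of most glycolytic enzymes, of the glucose transporter Slc2a1, and of genes for oxygen supply, pH control and mitochondrial turnover. Because HIF1A is controlled mainly through its protein, its own transcript says little about its activity.

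The core sequence was searched for in promoter windows of 300 bases (250 before and 50 after each annotated start) taken from RefSeq, build GRCm38.p6. It was written as ACGTG or GCGTG on either strand. The palindrome CACGTG, which other factors bind too, holds ACGTG on both strands. Of the 37 genes, 34 had a window, some more than 1 (50 windows in all), and Bnip3l, Ndrg1 and Slc2a3 had none. ACGTG or GCGTG occurred in 38 of the 50 windows (76.0%), against 43.8% of all 32851 windows. The median GC content was 61.2% in the windows of the set and 52.7% in all windows, and these motifs are themselves rich in G and C. At least 1 window held a match in 30 of the 34 genes. The following stretches are examples from genes that passed the test in the comparisons below. They lie before the start site, read 5′ to 3′ on the strand of the gene, and each has 1 match in capitals. The stretches of Ankrd37 and Pgk1 also hold a match on the opposite strand that is not marked. It is CACGC, overlapping the capitals, in Ankrd37 and CACGT, near the end, in Pgk1.
Narf: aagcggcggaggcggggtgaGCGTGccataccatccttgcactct
Ankrd37: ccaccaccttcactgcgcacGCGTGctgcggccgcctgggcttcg
Egln1: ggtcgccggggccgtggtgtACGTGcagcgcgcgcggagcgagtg
P4ha1: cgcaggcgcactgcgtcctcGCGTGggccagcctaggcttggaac
Pgam1: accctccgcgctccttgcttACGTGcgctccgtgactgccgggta
Hk2: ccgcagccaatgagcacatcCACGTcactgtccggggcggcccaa
Pfkfb4: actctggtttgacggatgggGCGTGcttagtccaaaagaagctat
Pgk1: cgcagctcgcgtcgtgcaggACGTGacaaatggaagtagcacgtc
The stretches lie at chr11:121237087-121237131 (plus strand) for Narf, chr8:45999978-46000022 (minus) for Ankrd37, chr8:124949298-124949342 (minus) for Egln1 and chr10:59323150-59323194 (plus) for P4ha1. The others lie at chr19:41911737-41911781 (plus) for Pgam1, chr6:82774482-82774526 (minus) for Hk2, chr9:108991765-108991809 (plus) for Pfkfb4 and chrX:106186930-106186974 (plus) for Pgk1. Of the genes shown, Hk2 rose in wild type and Narf, Ankrd37, Egln1, P4ha1 and Pgam1 fell. Vegfa, Pfkfb3, Ldha, Hk1, Aldoa, Pkm and Hif1a also passed in a comparison and had a match before the start that is not shown. A match in these letters is not a measured binding site. The windows of Tpi1 and Car12 held no match to these letters.

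Levels are log2 intensities relative to the 75th percentile of each array, so that a level of 0 lies at that percentile and a difference of 1 is a doubling. Between 60.4 and 67.3% of probes were well above background on each array. The Ppp1r15a probe read 2.88 ± 0.42 in untreated wild-type and 5.81 ± 0.02 in treated wild-type cells (SD, n = 3). It was well above background on 0 of 3 untreated and 1 of 3 treated ΔC arrays. The files do not show whether this probe lies in the removed part. Ifnb1, the gene for interferon beta, was well above background on all 3 treated arrays of each genotype, on 0 of 3 untreated wild-type arrays and on 1 of 3 untreated ΔC arrays. Of 14 fibroblast markers, 12 were well above background on all 12 arrays, and Lum was on none. The 4 arrays numbered 3 stood apart from the other 8 on the third principal component (-45.5 to -24.3 against 2.08 to 31).

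The first question was how wild-type cells changed after poly(I:C). In wild-type cells 11 of the 37 genes passed the test (29.7%), against 6.77% of all genes tested. Of these, 4 rose (5.24% of all genes did) and 7 fell (1.53% did). The median log2 change of the 37 was -0.36, beside -0.14 over all genes. The rises were Ndrg1, Hk2, Vegfa and Pfkfb3, and the falls were Narf, Ankrd37, P4ha1, Bnip3l, Egln1, Tpi1 and Pgam1. HIF1 targets were thus found on both sides, and the transcript of Hif1a itself read 1.69 untreated and 1.67 treated (log2 change -0.02 ± 0.11 SE, limma adjusted p = 0.934).

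**Figure D1:**
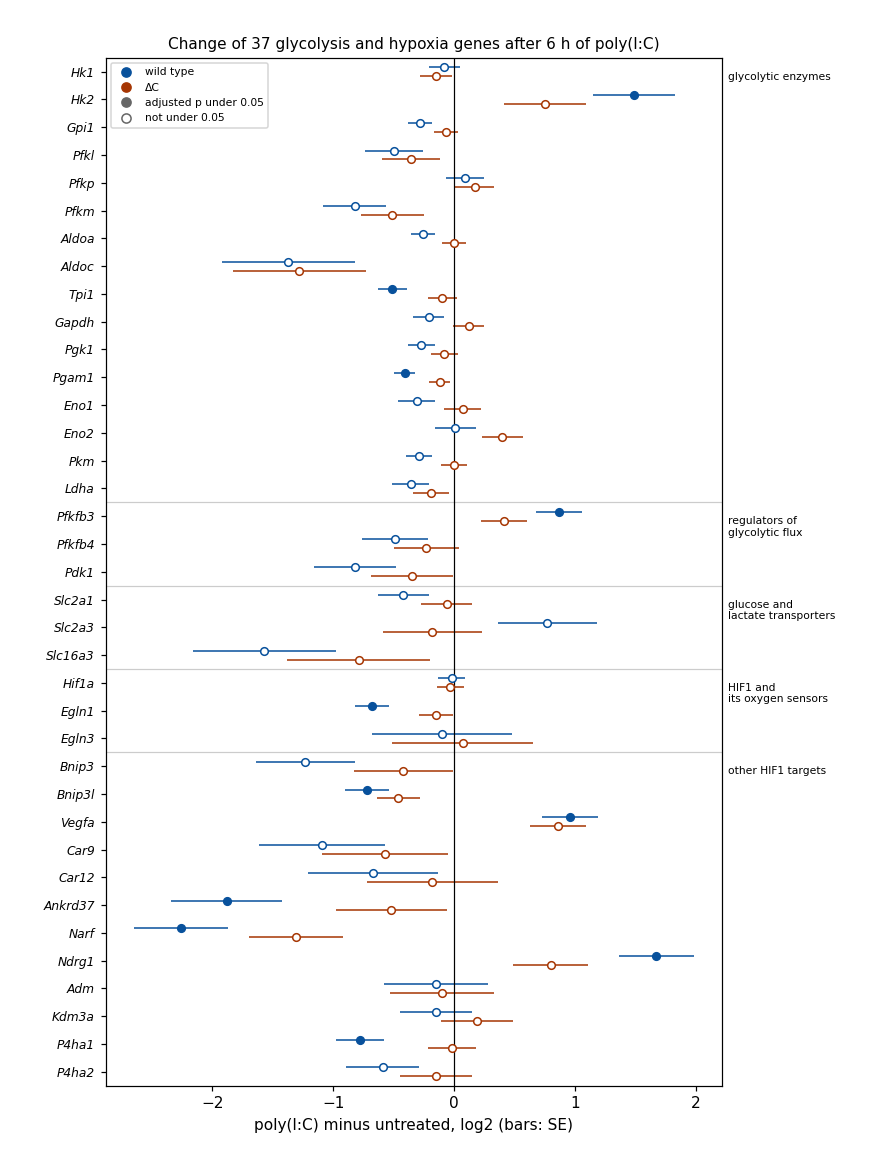
Log2 change after 6 h of poly(I:C) for each of the 37 genes, ordered by role, in wild-type (blue) and ΔC (brown) cells, 3 arrays per group. Points are fitted changes, bars are standard errors, and filled points have an adjusted p under 0.05. The 11 filled points are all wild type, and most enzymes lie left of 0 in wild type and near 0 in ΔC.

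Among the 16 glycolytic enzymes, 3 passed the test in wild type: Hk2 rose, and Tpi1 and Pgam1 fell. Hk2 encodes the inducible hexokinase, which traps glucose in the cell as its phosphate. Its levels were 0.74, 0.44 and 1.17 on the untreated arrays and 2.63, 2.55 and 1.63 on the treated arrays. The groups did not overlap, and in experiment 3 the untreated value was the highest and the treated value the lowest of its group. The change was 1.49 ± 0.34 (SE), or 2.81-fold (limma adjusted p = 0.0298). Hk1, the hexokinase that most cells express constantly, changed by -0.08 ± 0.13 (limma adjusted p = 0.707).

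Tpi1 encodes triosephosphate isomerase, which interconverts the 3-carbon products of aldolase. Its levels were 7.11, 7.08 and 6.85 untreated and 6.52, 6.60 and 6.38 treated. All 3 treated arrays lay below all 3 untreated arrays. The fall was -0.51 ± 0.12, or 1.43-fold (limma adjusted p = 0.0354). Pgam1 encodes phosphoglycerate mutase, a late step of the pathway. It read 7.87, 7.96 and 7.87 untreated and 7.47, 7.50 and 7.51 treated, with arrays tightly grouped and no overlap. The fall was -0.41 ± 0.09, or 1.33-fold (limma adjusted p = 0.0237).

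The other 13 enzymes did not pass, with log2 changes from -1.37 (Aldoc) to 0.09 (Pfkp). For 12 of the 16 enzymes the treated and untreated wild-type arrays did not overlap, 11 of them with treated arrays lower. Over all genes, 30.6% did not overlap, 18.6% with treated arrays lower. Aldoc, an aldolase typical of brain, read 2.47, 2.16 and 1.10 untreated and 0.15, 0.42 and 1.05 treated. Experiment 3 lay between the rest on both sides, and the change of -1.37 ± 0.55 had a limma adjusted p of 0.148. Pfkm, the muscle-type phosphofructokinase, changed by -0.82 ± 0.26 (limma adjusted p = 0.0871). The abundant housekeeping steps changed less: Aldoa by -0.26, Pgk1 by -0.27, Pkm by -0.29, Eno1 by -0.31 and Ldha by -0.36, with limma adjusted p of 0.134 to 0.217.

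Of the 3 regulators of flux, Pfkfb3 rose. It encodes a kinase that makes fructose 2,6-bisphosphate, the strongest activator of phosphofructokinase. Its levels were 0.73, 0.76 and 1.30 untreated and 1.70, 1.69 and 2.01 treated. Array 3 was the highest in both groups, and the groups did not overlap. The rise was 0.87 ± 0.19, or 1.83-fold (limma adjusted p = 0.0256), and its 2 probes gave 0.61 and 0.87. Its relative Pfkfb4 changed by -0.49 ± 0.27 (limma adjusted p = 0.263). Pdk1, the kinase that shuts pyruvate dehydrogenase and so keeps pyruvate out of mitochondria, changed by -0.82 ± 0.34 (limma adjusted p = 0.157).

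None of the 3 transporters passed in wild type. Slc16a3 encodes MCT4, which exports lactate, and it read 2.95, 1.66 and 1.29 untreated and 0.21, 0.07 and 0.92 treated. The groups did not overlap, but the untreated arrays were spread widely, and the change of -1.57 ± 0.59 had a limma adjusted p of 0.128. Slc2a1 (GLUT1) changed by -0.42 ± 0.21 (limma adjusted p = 0.233). Slc2a3 (GLUT3) changed by 0.77 ± 0.41 (limma adjusted p = 0.257), and with the experiment number as a block it passed (limma adjusted p = 0.0266).

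Egln1 encodes PHD2, the main prolyl hydroxylase acting on HIF1A, and is itself a HIF1 target. It read -1.03, -1.10 and -1.48 untreated and -1.78, -1.96 and -1.91 treated. All treated arrays lay below all untreated arrays. The fall was -0.68 ± 0.14, or 1.60-fold (limma adjusted p = 0.0171). Egln3, which encodes PHD3, changed by -0.10 ± 0.58 (limma adjusted p = 0.925), with levels on arrays numbered 3 more than 1 unit below the others in every group.

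Among the 12 other HIF1 targets, 2 rose and 4 fell in wild type. Ndrg1, a stress-responsive gene induced in hypoxia, read 3.35, 3.19 and 4.05 untreated and 5.45, 5.51 and 4.64 treated. The groups did not overlap, and the gap was smallest in experiment 3. The rise was 1.67 ± 0.31, or 3.18-fold (limma adjusted p = 0.0103). Vegfa, the gene for a growth factor of blood vessels, read 1.89, 1.58 and 2.19 untreated and 3.16, 2.94 and 2.45 treated, again without overlap. It rose by 0.96 ± 0.23, or 1.95-fold (limma adjusted p = 0.0371).

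The largest fall of the set was that of Narf, which encodes a nuclear protein that binds prelamin A. It read -0.07, -0.31 and -1.47 untreated and -3.04, -3.31 and -2.28 treated. The 3 treated arrays were all lower, with experiment 3 showing the smallest gap. The fall was -2.26 ± 0.39, or 4.79-fold (limma adjusted p = 0.00699). Ankrd37, an ankyrin repeat gene strongly induced by HIF1, read 1.46, 0.25 and -0.41 untreated and -1.18, -1.63 and -1.52 treated. The treated arrays were close together and the untreated arrays were not. The fall was -1.88 ± 0.46, or 3.67-fold (limma adjusted p = 0.0388).

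P4ha1 encodes the catalytic subunit of the prolyl hydroxylase that modifies collagen. It read 0.71, 0.24 and 0.00 untreated and -0.34, -0.77 and -0.28 treated, with no overlap. The fall was -0.78 ± 0.20, or 1.72-fold (limma adjusted p = 0.0424). Bnip3l encodes a receptor for the removal of mitochondria by autophagy. It read 4.17, 4.05 and 3.44 untreated and 3.16, 3.12 and 3.22 treated, and all 4 of its probes gave a lower treated level (-0.92 to -0.68). The fall was -0.72 ± 0.18, or 1.65-fold (limma adjusted p = 0.0388). Its paralogue Bnip3 read 4.82, 4.00 and 2.81 untreated and 2.72, 2.48 and 2.73 treated, and the change of -1.23 ± 0.41 had a limma adjusted p of 0.0969. Car9, Car12, Adm, Kdm3a and P4ha2 did not pass either, with changes from -1.09 to -0.15.

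**Figure D2:**
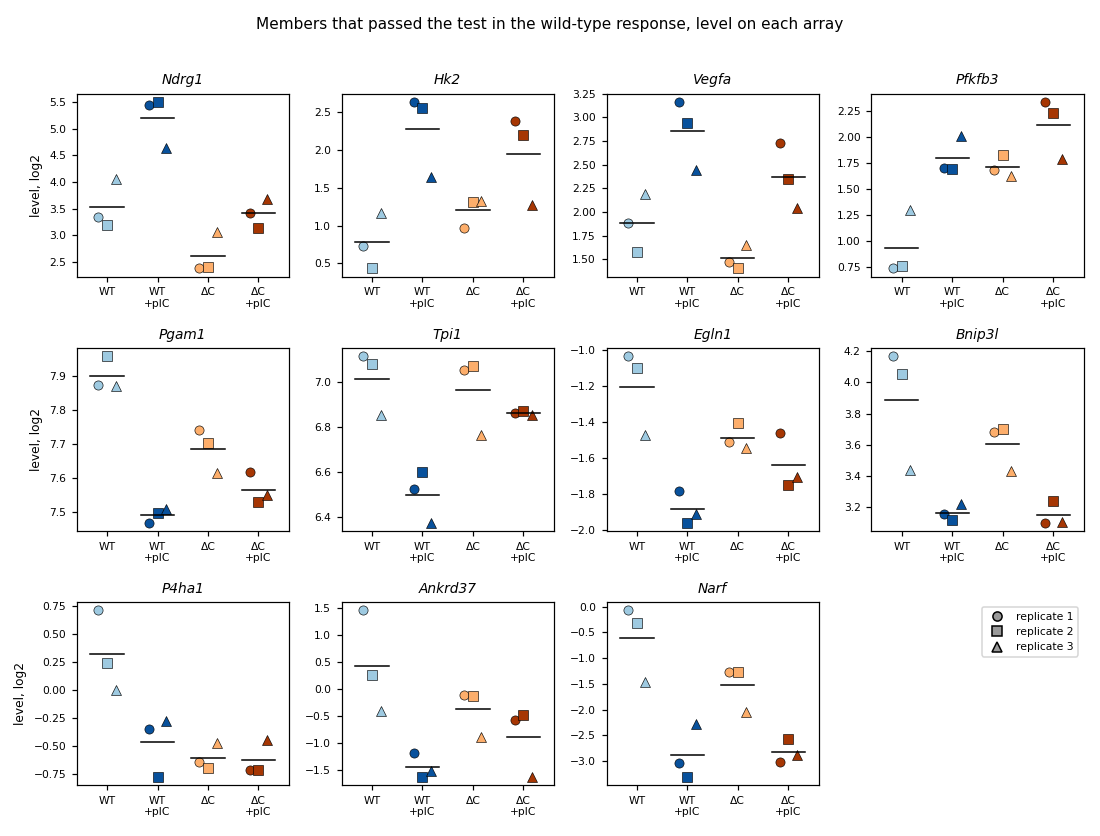
Level on each array (log2, relative to the 75th percentile of the array) of the 11 genes that passed the test in wild type, by group and experiment, 3 arrays per group, pIC standing for poly(I:C). Black lines are means and the vertical scale differs between panels. In each panel the treated and untreated wild-type arrays do not overlap, and experiment 3 (triangles) has the smallest gap in all 11.

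Between untreated wild-type arrays, the HIF1 targets varied more than the enzymes or all genes did. The median SD was 0.45 for the 12 other targets, 0.17 for the enzymes and 0.23 for all genes, and 10 of the 37 genes had an SD over 0.5. Car9, the gene for a carbonic anhydrase widely used as a mark of hypoxia, read -0.18, -1.81 and -2.89 untreated against -2.55, -2.87 and -2.71 treated. Its untreated array 3 lay as low as the treated arrays. Untreated array 3 was the lowest of its group for 22 of the 37 genes, and untreated array 1 the highest for 21. In the other groups array 3 was the lowest for 15 genes (treated wild type), 21 (untreated ΔC) and 20 (treated ΔC). Untreated ΔC arrays had a median SD of 0.38 for the 12 other targets, 0.11 for the enzymes and 0.21 for all genes. The part of these arrays in the results was not tested.

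The wild-type count moved with the arrays used. Without the 4 arrays numbered 3 it was 24 (5 rises and 19 falls), which included all 11, and 34.1% of all genes then passed. Over the 28 alternatives, Narf passed most often of the 11 (24) and Tpi1 least often (10). Without untreated array 1 or 2, or treated array 1 or 2, 1 gene passed in each case. It was 0 with the slide as a block and 1 with the scan day as a block, and with median scaling 3 passed, 2 higher and 1 lower. Without untreated ΔC array 1 or 2 or treated ΔC array 2, which enter only the shared spread, 6 passed, and without treated ΔC array 1, 7 passed. Apart from the fit without the 4 arrays numbered 3, the shares of all genes that passed in these fits are not given here. Median scaling moved the all-gene median from -0.14 to -0.07 in wild type, from -0.05 to -0.19 in ΔC, from 0.01 to -0.14 between treated genotypes and from 0.07 to -0.14 for the difference between responses. Slide 2 and scan day 1 held wild-type arrays of both groups, and the 11 differences ran from -2.99 to 2.32 on slide 2. All 11 had the sign of the full fit there. Since none of the 11 genes overlapped between the groups, the sign could not have differed, and it says nothing about the batches.

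In ΔC cells 0 of the 37 genes passed in limma, against 1.84% of all genes, and 6 had an unadjusted p under 0.05 (10.9% of all genes did). The median log2 change was -0.10, beside -0.05 over all genes. The treated and untreated arrays did not overlap for 7 genes, 3 higher and 4 lower, against 17.7% of all genes (8.79% higher and 8.91% lower). Narf read -1.26, -1.26 and -2.04 untreated and -3.02, -2.58 and -2.88 treated. The treated arrays were all lower, and the change was -1.31 ± 0.39 (95% interval -2.17 to -0.44, limma adjusted p = 0.199).

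Vegfa read 1.48, 1.41 and 1.66 in untreated and 2.73, 2.35 and 2.04 in treated ΔC cells. The groups did not overlap, and the change was 0.86 ± 0.23 (limma adjusted p = 0.137). Ndrg1 read 2.38, 2.40 and 3.06 untreated and 3.42, 3.14 and 3.68 treated, also without overlap, with a change of 0.80 ± 0.31 (limma adjusted p = 0.388). Hk2 read 0.97, 1.31 and 1.33 untreated and 2.38, 2.20 and 1.26 treated. Treated array 3 fell within the untreated range, and the change was 0.75 ± 0.34 (limma adjusted p = 0.465).

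Pfkfb3 read 1.68, 1.83 and 1.62 in untreated and 2.34, 2.23 and 1.79 in treated ΔC cells. It was higher with poly(I:C) in each experiment (by 0.66, 0.40 and 0.16), while treated array 3 lay below untreated array 2. Bnip3l read 3.68, 3.70 and 3.43 untreated and 3.1, 3.24 and 3.11 treated, all treated arrays being lower. Ankrd37 read -0.11, -0.14 and -0.89 untreated and -0.58, -0.49 and -1.63 treated, with overlap. Egln1, P4ha1, Tpi1 and Pgam1 changed by -0.15, -0.02, -0.10 and -0.12, each with a 95% interval that included 0. Egln1 ranged from -1.55 to -1.41 untreated and from -1.75 to -1.46 treated. Tpi1 ranged from 6.76 to 7.07 untreated and from 6.85 to 6.87 treated, and Pgam1 from 7.62 to 7.74 and from 7.53 to 7.62. Without the 4 arrays numbered 3, 7 of the 37 passed in ΔC cells, with Hk2, Pfkfb3, Ndrg1 and Vegfa higher and Aldoc, Bnip3l and Narf lower. The share of all genes that passed in that fit is not given here. In wild type that share rose when these arrays were left out.

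The difference between the responses was tested directly with an interaction term. It passed for 0 of the 37 genes in limma, against 0.0194% of all genes, and 4 had an unadjusted p under 0.05 (5.41% of all genes did). These were P4ha1 (0.76, 95% interval 0.15 to 1.38, limma adjusted p = 0.718), Egln1 (0.53, 0.09 to 0.96, limma adjusted p = 0.74), Tpi1 (0.41, 0.03 to 0.80, limma adjusted p = 0.875) and Pgam1 (0.29, 0.01 to 0.57, limma adjusted p = 0.892). In each the wild-type change was the more negative. The genes with larger responses had wide intervals: -0.27 to 2.17 for Narf, -0.08 to 2.80 for Ankrd37, -1.83 to 0.09 for Ndrg1 and -1.82 to 0.33 for Hk2. The fact that genes passed in wild type and none in ΔC therefore does not show that the responses differed. Without the 4 arrays numbered 3, Narf (1.45, limma adjusted p = 0.0473), Ndrg1 (-1.32, limma adjusted p = 0.0182) and Slc2a3 (-1.29, limma adjusted p = 0.0206) passed. The share of all genes that passed without those arrays is not given here.

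The genotypes were then compared without treatment. Of the 37 genes, 9 passed (24.3%), against 21.2% of all genes, so that the share was near the background. There were 3 genes higher in ΔC (10.9% of all genes were) and 6 lower (10.2% were). Car12, Pfkfb4 and Pfkfb3 were higher, and P4ha1, Pgk1, Ldha, Hk1, Aldoa and Pkm were lower. Median scaling and quantile normalization each gave 5 genes, 4 higher and 1 lower, and the all-gene median moved from -0.06 to 0.01 with median scaling. The count was 16 without untreated wild-type array 3, 5 without untreated ΔC array 1 and 20 without the 4 arrays numbered 3. The shares of all genes that passed in these fits are not given here. The genotypes did not overlap for 16 genes, 3 with ΔC higher and 13 lower, against 37.2% of all genes (17.6% higher and 19.6% lower).

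The largest difference of the set was in Car12, which encodes a membrane carbonic anhydrase that works outside the cell. Its levels were -0.91, -0.90 and -0.13 in wild-type and 3.12, 2.47 and 3.1 in ΔC cells. All ΔC arrays lay far above all wild-type arrays, and the difference was 3.54 ± 0.54, or 11.7-fold (limma adjusted p = 0.00157). Pfkfb4 encodes an isoform of the enzyme that makes and removes fructose 2,6-bisphosphate. It read -0.07, -0.03 and -0.13 in wild-type and 2.28, 2.52 and 1.69 in ΔC cells, with no overlap. The difference was 2.24 ± 0.27, or 4.71-fold (limma adjusted p = 0.000337).

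Both genes also differed with poly(I:C). Treated wild-type cells read -1.83, -2.28 and 0.16 and treated ΔC cells 3.03, 2.26 and 2.86 for Car12. Wild-type array 3 was well above the other 2 wild-type arrays and still below every ΔC array. The difference was 4.03 ± 0.54, or 16.3-fold (limma adjusted p = 0.000812). Pfkfb4 read -0.81, -0.90 and 0.01 in treated wild-type and 1.91, 2.15 and 1.72 in treated ΔC cells. The difference was 2.50 ± 0.27, or 5.64-fold (limma adjusted p = 0.000193). For both genes the genotype difference passed in both comparisons under all 28 alternatives tried. With all 12 arrays the wild-type change after poly(I:C) passed for neither gene.

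Pfkfb3 was 0.78 ± 0.19 higher in untreated ΔC cells, or 1.72-fold (limma adjusted p = 0.0182). Its second probe gave a difference of 0.21, the mean of its probes gave 0.49 (limma adjusted p = 0.0829), and it passed in 20 of the 28 alternatives. With poly(I:C) the difference was 0.32 ± 0.19 (limma adjusted p = 0.279), the treated wild-type and ΔC arrays overlapping.

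The 5 enzymes that passed as lower in untreated ΔC cells differed by -0.64 to -0.40. Pgk1, which makes the first ATP of the pathway, read 7.98, 7.79 and 7.82 in wild-type and 7.31, 7.17 and 7.18 in ΔC cells. The genotypes did not overlap, and the difference was -0.64 ± 0.11, or 1.56-fold (limma adjusted p = 0.00239). Ldha, which makes lactate from pyruvate, read 9.05, 8.71 and 8.79 in wild-type and 8.27, 8.13 and 8.31 in ΔC cells (-0.61 ± 0.15, limma adjusted p = 0.018). Its 3 probes gave -0.81 to -0.61.

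Hk1 read 5.25, 5.46 and 5.19 in wild-type and 4.71, 4.96 and 4.67 in ΔC cells, without overlap (-0.52 ± 0.13, limma adjusted p = 0.0195). Aldoa, the aldolase of muscle and most other tissues, read 7.93, 7.86 and 7.80 against 7.34, 7.38 and 7.50 (-0.46 ± 0.10, limma adjusted p = 0.0105). Pkm, the pyruvate kinase of these cells, read 7.12, 7.20 and 7.16 against 6.83, 6.75 and 6.68 (-0.40 ± 0.11, limma adjusted p = 0.0303). In each of these the genotypes did not overlap. With quantile normalization none of the 5 passed: Pgk1 differed by -0.33, Hk1 by -0.38, Ldha by -0.24, Aldoa by -0.14 and Pkm by -0.13 (limma adjusted p = 0.0545 to 0.474). The authors' deposited table gave the same 5 values, also with none passing, so that it does not stand apart from quantile normalization here. None passed with median scaling (-0.57 to -0.33) or with the slide as a block (-0.70 to -0.29). Among the 28 alternatives Pgk1 passed in 23, Aldoa in 21, Hk1 in 20, Ldha in 19 and Pkm in 14. Among the 16 enzymes, 9 separated the genotypes without overlap, all with ΔC lower, against 37.2% of all genes (19.6% with ΔC lower).

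P4ha1 read -0.64, -0.69 and -0.47 in untreated ΔC cells, below every untreated wild-type array (-0.92 ± 0.20, or 1.89-fold, limma adjusted p = 0.0087), and passed in 25 of the 28 alternatives. Treated ΔC cells read -0.71, -0.71 and -0.44, close to treated wild-type cells, and that difference was -0.16 ± 0.20 (limma adjusted p = 0.62). With the experiment number as a block 14 genes passed between untreated genotypes, 4 higher and 10 lower. The share of all genes that passed with that block is not given here. The additional genes were Slc2a3 (1.16, limma adjusted p = 0.00164), Egln3 (-0.91, limma adjusted p = 0.00223), P4ha2 (-0.81, limma adjusted p = 0.0226), Eno1 (-0.38, limma adjusted p = 0.0497) and Hif1a (-0.33, limma adjusted p = 0.0309).

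**Figure D3:**
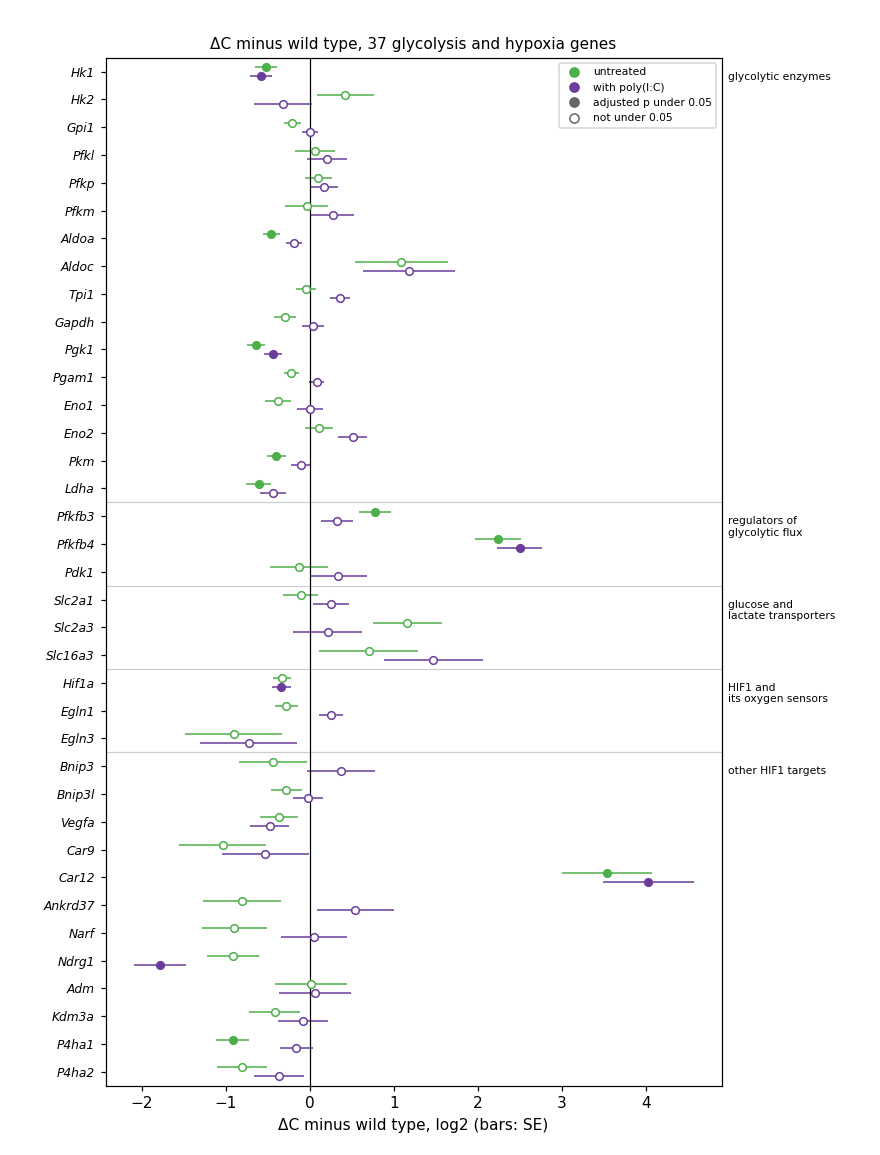
Difference between ΔC and wild-type cells (log2) for each of the 37 genes, ordered by role, untreated (green) and with poly(I:C) (purple), 3 arrays per group. Points are fitted differences, bars are standard errors, and filled points have an adjusted p under 0.05. Car12 and Pfkfb4 lie far to the right in both comparisons, and most filled enzymes lie left of 0 by less than 1.

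With poly(I:C), 6 of the 37 genes differed between genotypes (16.2%), against 20.9% of all genes. There were 2 higher in ΔC (11.9% of all genes were) and 4 lower (9.04% were). The median difference was 0.05, beside 0.01 over all genes. Besides Car12 and Pfkfb4, the genes were Ndrg1, Hk1, Pgk1 and Hif1a. Median scaling gave 2 higher and 1 lower, and quantile normalization 3 higher and 3 lower. Without treated wild-type array 2, 3 genes passed, and without the 4 arrays numbered 3, 14 did (10 higher and 4 lower). For these fits too, the share of all genes that passed is not given here. The genotypes did not overlap for 16 genes, 9 with ΔC higher and 7 lower, against 40.6% of all genes (21.7% higher and 18.9% lower).

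Ndrg1 showed the largest difference after Car12 and Pfkfb4. Treated wild-type cells read 5.45, 5.51 and 4.64 and treated ΔC cells 3.42, 3.14 and 3.68, and the genotypes did not overlap. The difference was -1.79 ± 0.31, or 3.45-fold lower in ΔC (limma adjusted p = 0.00292). Without treatment it was -0.92 ± 0.31 (limma adjusted p = 0.0583), again without overlap.

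Hk1 read 5.16, 5.36 and 5.13 in treated wild-type and 4.77, 4.58 and 4.53 in treated ΔC cells (-0.58 ± 0.13, limma adjusted p = 0.011). Pgk1 read 7.70, 7.61 and 7.46 against 7.20, 7.11 and 7.12 (-0.44 ± 0.11, limma adjusted p = 0.0148), and the authors' deposited table, in which 1 treated ΔC column does not match its array, gave 0.03 (limma adjusted p = 0.966). Hif1a read 1.64, 1.71 and 1.65 against 1.31, 1.44 and 1.23 (-0.34 ± 0.11, limma adjusted p = 0.0446). In all of these the genotypes did not overlap. Hif1a passed in only 10 of the 28 alternatives (limma adjusted p = 0.00583 to 0.84), and leaving out any 1 of the 6 treated arrays ended its call. With the authors' deposited table Hif1a differed by -0.08 and Hk1 by -0.18, and without the mismatched column Hif1a differed by -0.31 (limma adjusted p = 0.109). Ndrg1 passed in 26, Hk1 in 23 and Pgk1 in 19, and with quantile normalization Pgk1 differed by -0.29 (limma adjusted p = 0.0872). The untreated Hif1a levels were 1.69, 1.82 and 1.55 in wild-type and 1.30, 1.40 and 1.37 in ΔC cells, and that difference of -0.33 had a limma adjusted p of 0.0513.

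For 3 enzymes that differed without treatment, the difference with poly(I:C) did not pass in the main fit. With array weights all 3 passed: Ldha (-0.36), Aldoa (-0.23) and Pkm (-0.23), with limma adjusted p of 0.0229 to 0.0347. The share of all genes that passed with array weights is not given here. Ldha read 8.64, 8.44 and 8.39 in treated wild-type and 8.15, 8.23 and 7.76 in treated ΔC cells (-0.44 ± 0.15, limma adjusted p = 0.063), and with the experiment number as a block Ldha passed (limma adjusted p = 0.0438). Aldoa read 7.67, 7.66 and 7.48 against 7.39, 7.48 and 7.36 (-0.19 ± 0.10, limma adjusted p = 0.21). Pkm read 6.95, 6.95 and 6.69 against 6.68, 6.68 and 6.90 with overlap (-0.11 ± 0.11, limma adjusted p = 0.545). The block also brought in Tpi1, 0.36 higher in ΔC (limma adjusted p = 0.0267, and 0.0622 without the block), and Egln3, lower by -0.73 (limma adjusted p = 0.0057, and 0.415 without it). Within the batches shared by both genotypes (slide 2 and scan day 1 untreated, slide 1 and scan day 1 treated), all 9 and all 6 differences kept their sign. These genes did not overlap between the genotypes, so that their signs could not have differed. With the slide as a block 2 genes passed in each comparison, Car12 and Pfkfb4, and with the scan day as a block 4 and 3 passed. The shares of all genes that passed in these block fits are not given here.

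**Figure D4:**
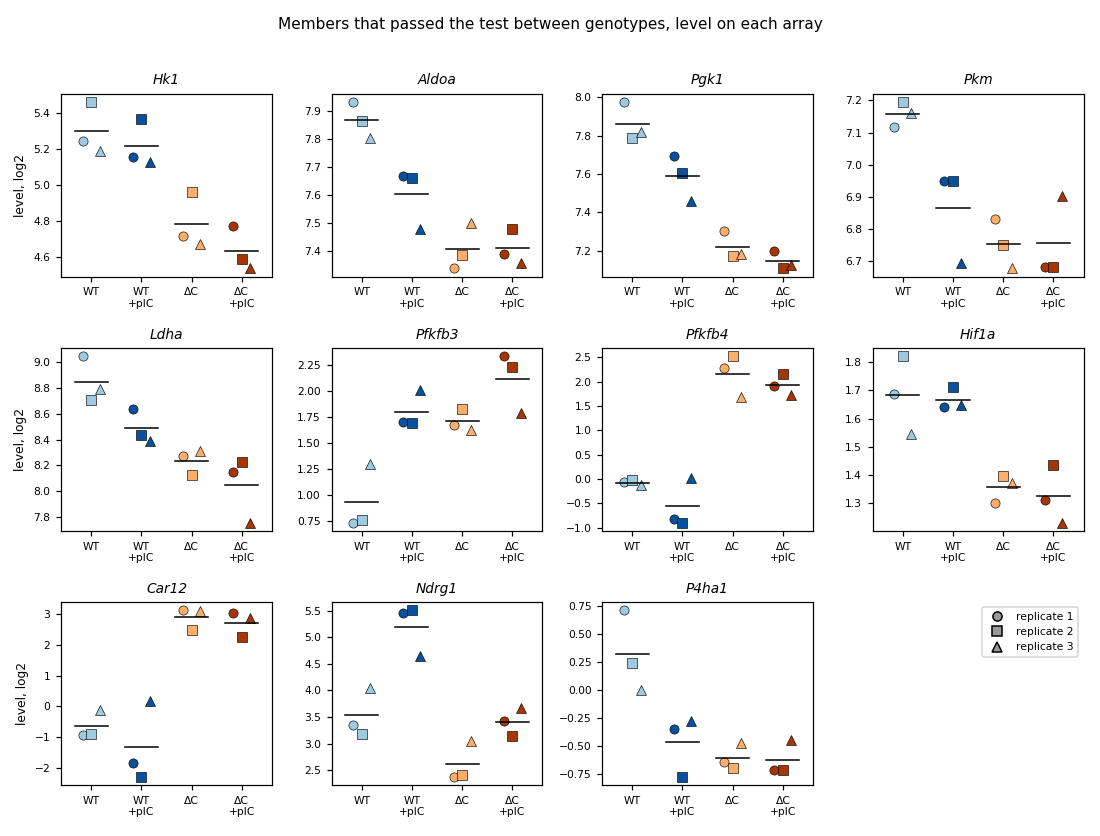
Level on each array (log2, relative to the 75th percentile of the array) of the 11 genes that passed the test between genotypes, by group and experiment, 3 arrays per group, pIC standing for poly(I:C). Black lines are means and the vertical scale differs between panels. Car12 and Pfkfb4 separate the genotypes by over 1 log2 unit on all arrays, and Pgk1 and Hk1 by less than 1 between group means.

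Other genes of the same pathways gave the setting for these values, and the RNA of a culture does not tell fewer cells of a kind from less RNA per cell. Of 44 further HIF targets tested, 2 rose and 0 fell in wild type (4.55%, against 6.77% of all genes; Rsbn1 by 1.5 and Errfi1 by 1.39), and 3 rose in ΔC cells (1.82% of all genes rose), led by Angptl4 (2.06 ± 0.32, limma adjusted p = 0.00749) and Errfi1 (1.33 ± 0.28, limma adjusted p = 0.0404). Between untreated genotypes 3 were higher and 13 lower in ΔC (36.4%, against 21.2% of all genes, 10.9% higher and 10.2% lower). Angptl4, a secreted inhibitor of lipoprotein lipase, was lower by -4.29 ± 0.32 (limma adjusted p = 1.67e-05) and Ak4, a mitochondrial adenylate kinase, by -3.23 ± 0.33 (limma adjusted p = 0.000134). Cxcl12 was 1.76 ± 0.31 higher (limma adjusted p = 0.00315), and Selenbp1 was also higher (limma adjusted p = 0.000368). Only 1 of 3 untreated wild-type arrays was well above background for Selenbp1, so that the size of its fitted difference (4.63) rests partly on background readings.

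Of 26 companion genes of glycolysis tested, 0 passed in either response in limma (4 in wild type and 2 in ΔC at an unadjusted p under 0.05). Over all 15445 genes, 4050 had an unadjusted p under 0.05 in the wild-type response and 1682 (10.9%) in the ΔC response. Between untreated genotypes 5 were higher and 3 lower in ΔC (30.8%, against 21.2% of all genes). With poly(I:C) 6 were higher and 0 lower (23.1%, against 20.9% of all genes, 11.9% higher and 9.04% lower). Slc2a4, the insulin-responsive glucose transporter, was 4.62 ± 0.53 higher without treatment (limma adjusted p = 0.000265), and Slc2a10 was higher too (limma adjusted p = 0.0146), its fitted difference of 4.46 resting partly on background readings, since 2 of 3 wild-type arrays were well above background. Eno3, the muscle enolase, was lower by -1.48 ± 0.45 and Ldhc by -0.90 ± 0.27 (limma adjusted p = 0.0408 for both). Of 33 genes of pyruvate entry and the tricarboxylic acid cycle, 3 fell in wild type (9.09%, against 1.53% of all genes), led by Pdk2 (-1.37 ± 0.36, limma adjusted p = 0.0494) and Mdh1 (-0.52 ± 0.13, limma adjusted p = 0.0446). Of these 33, 2 were higher and 8 lower in untreated ΔC cells (30.3%, against 21.2% of all genes). Of 10 genes of the pentose phosphate pathway 0 passed in either response (3 and 1 at an unadjusted p under 0.05), and of 23 HIF subunits and regulators 0 did (4 and 1).

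Most of the 37 genes had only 1 usable probe, so that no probes could be compared for them. Among the genes with more than 1, the probes disagreed in sign for 6 genes in at least 1 comparison. Pfkp had 2 probes of opposite sign in both responses (-0.02 and 0.09, and -0.08 and 0.17), between treated genotypes and in the difference, and Hk1 in the wild-type response (-0.08 and 0.13). Gapdh, the reference gene of many assays, had 6 probes from -0.06 to 0.12 in ΔC cells and from -0.27 to -0.12 in wild type. Tpi1 without treatment and Bnip3l with poly(I:C) had probes of opposite sign between genotypes, and Pfkfb3 had them in the difference between responses.

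Marker lists were read beside the genotype and response values, each as the log2 of the summed level of its genes on an array. The 14 fibroblast markers summed to 9.35 to 9.52 in untreated wild-type and 8.33 to 9.27 in untreated ΔC cells, without overlap, and to 9.22 to 9.44 and 8.39 to 9.27 with poly(I:C), with overlap. The collagen gene Col3a1 had a mean of 3.49 in untreated wild-type and -0.16 in untreated ΔC cells, and the mesenchymal factor Prrx1 2.35 and 0.51. Col1a1, Col1a2, Pdgfrb, Vim and Twist1 also had lower means in untreated ΔC cells. Thy1 (-3.72 against -5.09), Twist2 (3.93 against 3.28) and Col5a1 (3.61 against 3.42) had higher means there. Fn1 (6.52 against 6.54), Dcn (-1.44 against -1.38) and Pdgfra (-0.51 against -0.55) were nearly level. The 6 epithelial markers gave overlapping sums (-0.75 to 2.3 and 0.85 to 1.92 untreated). Its members differed in direction. Epcam and Cdh1 were well above background on all 6 ΔC arrays and on 0 of 6 wild-type arrays. Their untreated means were -2.90 and -5.24 in ΔC cells. Krt18 was also higher in untreated ΔC cells (0.83 against -0.79). Krt8, Krt5 and Krt14 were lower (-5.74, -3.02 and -2.53 against -3.82, -2.78 and -1.94). Krt8 was well above background on 3 of 3 untreated wild-type arrays and 1 of 3 untreated ΔC arrays.

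The sum of 8 leukocyte markers (7 named, 5 of them well above background on all 12 arrays and Lyz2 on none) was 4.30 to 4.56 in untreated and 3.84 to 4.04 in treated wild-type cells, and 3.32 to 3.70 and 3.40 to 3.69 in ΔC cells. The sum was thus lower after poly(I:C) in wild type and lower in ΔC than in wild type, without overlap. Its members differed in direction. Itgam (2.86 against 3.71), Csf1r (1.22 against 2.41) and Cd14 (0.43 against 1.61) had lower means in untreated ΔC cells. Fcgr3 had a higher mean there (-5.34 against -5.93). With poly(I:C), Ptprc (-4.42 against -4.97) and Adgre1 (-4.52 against -4.65) also had higher means in ΔC. The 5 neuron markers, of a tissue that also expresses Eno2 and Aldoc, had 4 on all 12 arrays and Nefl on none. They summed to 3.49 to 3.75 untreated and 3.28 to 3.31 treated in wild type, without overlap, and to 2.88 to 3.14 and 3.07 to 3.31 in ΔC. In wild type the mean of Snap25 went from 3.39 to 2.94 and that of Tubb3 from 0.56 to 0.84. Untreated ΔC cells had lower means of Snap25 (2.50) and Map2 (-2.81 against -1.98). They had higher means of Tubb3 (0.98) and Syt1 (-3.66 against -4.23). The 5 skeletal muscle markers, of a tissue that also expresses Pfkm and Eno3, had Acta1 on all 12 arrays and Myog on none. Their sums ranged from -1.33 to 0.47 and -1.07 to 0.00 in wild type (untreated and treated) and from -0.18 to 1.78 and 0.37 to 1.66 in ΔC, separating the genotypes only with poly(I:C). Of 6 endothelial markers Cdh5, Tek and Tie1 were on none of the arrays. The endothelial sums were 3.92 to 4.47 and 3.98 to 4.04 in wild type and 3.63 to 3.98 and 3.64 to 4.16 in ΔC, with overlap throughout. The part of these markers in the results was not tested.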

How the data were processed

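RNA was taken from the supernatant of a detergent lysate and hybridised to 12 single-colour Agilent arrays (4 groups of 3). Per the file headers, the deposited scanner files give the intensity of 62976 spots from Feature Extraction 10.7.3.1, background-subtracted and with no normalization between arrays. A value table that the authors deposited holds log2 values with a shared column median of 5.28 and a shared highest value of 19.1. Between untreated genotypes, the 5 enzyme differences it gave equalled those with quantile normalization. Its normalization is otherwise not given in the sources used here, and limma is named in the submitters' processing notes. Its column for ΔC with poly(I:C), replicate 1, correlated at 0.9488 with its own scanner file and at 0.9743 with untreated wild type 1, so that it served only as an alternative, with and without that column.

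Processed intensities were put on the log2 scale, spots of a probe were averaged, control and outlier spots were left out, and the 75th percentile of each array over 55681 probes was subtracted. Probes (27235) were named through RefSeq accessions of GRCm38.p6. A gene was tested if 1 or more of the 4 groups had a probe well above background on each of its 3 arrays, and its brightest such probe stood for it, giving 15445 genes. One model over all 12 arrays was fitted with limma 3.58.1 in R 4.3.3 (8 residual degrees of freedom, two-sided, Benjamini-Hochberg over 15445 genes, passed at an adjusted p under 0.05). The script was tested on simulated data. Genes that passed in any comparison are given array by array, others by range, and from other lists the 2 largest rises and falls at most. The members and lists were chosen with earlier results of these data known.

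Deviations from group means correlated at 0.115 to 0.651 between arrays of the same experiment number. The labels give the numbers as independent experiments, so that they were taken to pair the arrays. The main fit did not use this pairing, which entered only through the experiment block among the alternatives. Alternatives were normexp on the median spot and background intensities (the files hold no mean signal), median scaling, quantile normalization, filters on dim probes, the mean of a gene's probes, fits of the compared groups alone, trend and robust variance, array weights, slide, scan day or experiment as a block, the deposited log2 table, and arrays left out. The fit without the arrays numbered 3 together with the experiment block was added after seeing the data. Arrays give no count depth, so precision is limited by their number. One marker list is not reported here.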

Additional observations from a re-analysis of the deposited data

How the results depend on the processing

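Counts are of the 37 genes that passed, without the share of all genes beside them. In the wild-type response (11) they were 3 with median scaling, 5 with no filter on dim probes, 0 with only the groups compared, 27 with array weights, 0 with the slide and 1 with the scan day as a block, 1 with the authors' table and 6 without its mismatched column. Without the 4 arrays numbered 3 they were 24, and 22 with the replicate block added. Leaving out 1 array gave 1 to 14, with 1 without wild-type arrays 1 or 2 of either treatment, 6 without untreated ΔC array 1 or 2 or treated ΔC array 2, and 7 without treated ΔC array 1. In the ΔC response (0) they were 9 with array weights, 7 without the arrays numbered 3 and 8 with the replicate block added; leaving out 1 array gave 0 to 0. Between untreated genotypes (9) they were 5 with median scaling, 5 with quantile normalization, 25 with array weights, 2 with the slide and 4 with the scan day as a block, 14 with the replicate block, 2 with the authors' table and 5 without its mismatched column, 20 without the arrays numbered 3, and 20 with the replicate block added. Leaving out 1 array gave 5 (without ΔC array 1) to 16 (without wild-type array 3). Between treated genotypes (6) they were 3 with median scaling, 17 with array weights, 2 with the slide and 3 with the scan day as a block, 2 with the authors' table, 14 without the arrays numbered 3 and 18 with the replicate block added, and leaving out 1 array gave 3 (without wild-type array 2) to 8. For the difference between responses (0) they were 3 with array weights, 3 without the arrays numbered 3 and 2 with the replicate block added, and the fit of only the groups compared gave no value. The other alternatives stayed within 1.5 times of each count. Pgk1 between treated genotypes turned to 0.03 (limma adjusted p = 0.966) with the authors' table, which holds the mismatched column. The replicate block moved the wild-type count to 12, the count between treated genotypes to 9, and left both the ΔC response and the difference between responses at 0; it ended no call. Except where a value above or the setting itself shows it, the cause of a change was not tested. The 3 arrays of a group limit what can be resolved.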
